A study of Mus musculus with 8 samples.

Results

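Mature neutrophils of the mouse heart were taken from 4 single-cell libraries as barcodes with at least 20 UMIs of S100a8 and S100a9 together, at least 3 UMIs of Csf3r, Cxcr2, Il1r2 and Retnlg together, fewer than 10 UMIs of Ltf, Camp and Ngp together, and no UMI of Cd79a or Cd3e. A UMI (unique molecular identifier) marks 1 captured RNA molecule. Only barcodes that held between 200 and 6000 genes, between 500 and 30000 UMIs and less than 15% mitochondrial UMIs entered the choice. The rule found 1387 mature neutrophils among 27053 kept barcodes. The members were thus chosen by their own UMI counts of these genes, and the levels of these genes are given as a description only.

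The hearts came from male wild-type C57BL/6J mice, 8 weeks old at the start, after a sham operation or transverse aortic constriction (TAC), a surgical narrowing of the aorta that loads the left ventricle with pressure. Hearts were taken 2 weeks (TAC-2w), 4 weeks (TAC-4w) and 6 weeks (TAC-6w) after TAC, and the labels do not give the week for sham. Where 4 values follow each other they stand for sham and then for these weeks in order. Each condition had 1 single-cell library and 1 spatial transcriptome of a heart section, so no test between conditions was made. All intervals are 95% intervals that cover counting error only. By their labels, the libraries of sham and TAC-6w belonged to batch 3, that of TAC-2w to batch 1 and that of TAC-4w to batch 2. Among the sections, sham and TAC-2w belonged to batch 1, TAC-4w to batch 2 and TAC-6w to batch 3. The study's pictures give the sham and TAC-2w libraries a shared run label and the TAC-6w library another, so a comparison called within batch 3 rests on the sample labels alone. Outside the pairs that share a batch by these labels, condition and batch cannot be told apart. The number of hearts behind each library was not given in the sources used here, and the labels describe nuclei where the methods describe digested hearts and removal of dead cells.

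Neutrophils are short-lived granulocytes that are made in the bone marrow and enter injured or stressed tissue from the blood. While they mature they stop making the proteins of their granules in a fixed order and gain the receptors for CXC chemokines and interleukin-1. In the heart they are known as an early source of interleukin-1β and of the calcium-binding alarmin proteins S100A8 and S100A9.

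The sham library had 144 mature neutrophils among 8228 kept barcodes, a share of 1.75% (interval 1.48% to 2.06%). At TAC-2w there were 66 among 6501, or 1.02% (0.786% to 1.29%). At TAC-4w there were 1015 among 6747, or 15.0% (14.2% to 15.9%), and at TAC-6w 162 among 5577, or 2.91% (2.48% to 3.38%). The share at TAC-4w was thus 8.60 times that of sham (7.21 to 10.3), that at TAC-2w 0.580 times (0.427 to 0.782), and that at TAC-6w, within batch 3, 1.66 times (1.32 to 2.09). With only barcodes that held Ptprc, the pan-leukocyte gene, among both members and total, the ratio at TAC-4w was 3.85 and that at TAC-6w 1.31. The intervals of the shares in sham and at TAC-6w then overlapped, at 4.14% to 5.86% and 5.21% to 7.99%. The Ptprc limit also left out members, with 127 of 144 kept in sham, 918 of 1015 at TAC-4w and 83 of 162 at TAC-6w. Without B cell, platelet and red cell barcodes the share at TAC-4w was 28.35% against 2.163% in sham.

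The make-up of the TAC-4w library also differed in its other barcodes. Barcodes marked as B cells made up 3.26%, 2.72%, 37.1% and 15.5% of the libraries. Barcodes with at least 5 UMIs of the platelet gene Ppbp made up 0.413%, 0.169%, 7.47% and 0.161%. Fibroblast-marked barcodes made up 55.7%, 50.1%, 5.88% and 52.0%. The share of neutrophils at TAC-4w therefore stood beside fewer fibroblasts and more B cells and platelets, and their part in it was not tested.

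**Figure D1:**
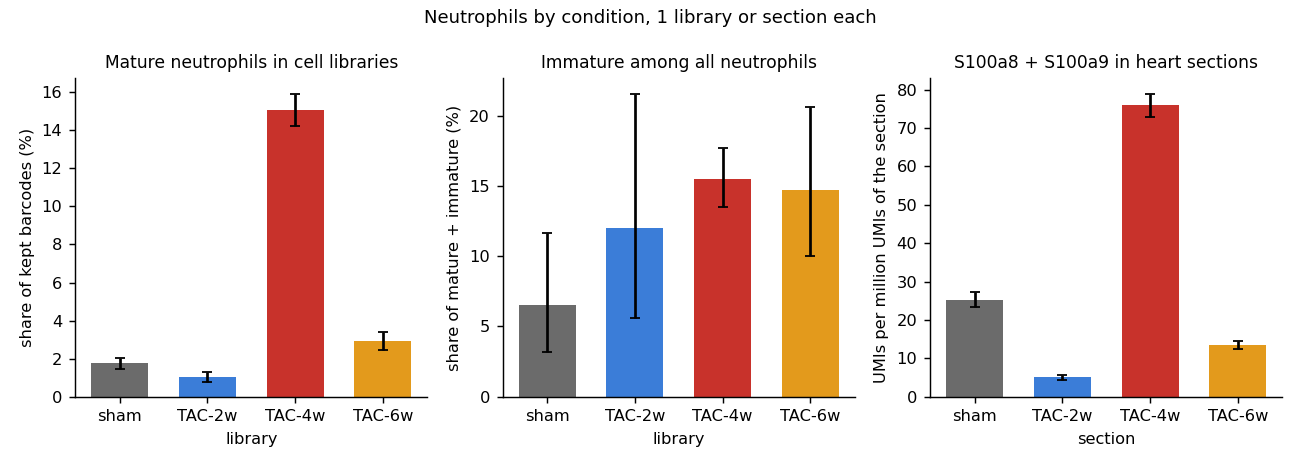
Share of mature neutrophils among the kept barcodes of each single-cell library in percent (left), share of immature neutrophils among mature and immature ones in percent (middle) and S100a8 and S100a9 in the heart section of each condition in UMIs per 1000000 UMIs (right), with 95% intervals for counting error. TAC-4w stands highest on the left and the right, at 15.0% and 75.9 UMIs per 1000000.

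In the sections, which the rule did not use, the summed level of S100a8 and S100a9 was 25.3 UMIs per 1000000 UMIs of the section (CPM) in sham (23.4 to 27.3). At 2 weeks it was 5.09 CPM (4.47 to 5.76), at 4 weeks 75.9 CPM (72.9 to 78.9) and at 6 weeks 13.4 CPM (12.4 to 14.5). The TAC-4w section was again the highest, at 3.00 times sham (2.75 to 3.27), and 48.2% of its spots held a UMI of either gene against 15.4% in sham. Within batch 1 the TAC-2w section was at 0.201 times sham. There, of the 12 neutrophil genes outside the rule, 4 had an interval below 1 and 6 one that held 1. The 2 above 1 were G0s2, at 1.613 times sham, and Msrb1, at 1.215 times. Both were widespread in that section, with a UMI of G0s2 in 62.2% of spots and of Msrb1 in 85.5%, against 5.82% for S100a8 or S100a9. Which cells held their UMIs was not tested. At TAC-4w 7 of the 12, G0s2 and Msrb1 among them, had an interval above 1, 0 below 1 and 5 one that held 1. The TAC-6w section lay below sham, at 0.531 times, while its library lay above sham, and 227 of its 649 UMIs fell in a single spot. Of the 12 neutrophil genes outside the rule, 2 had an interval below 1 in the TAC-6w section, 3 above 1 and 7 one that held 1. The share of all genes with such intervals in the sections is not given here, so these tallies describe the 12 genes only. Slpi was at 0.431 times sham (0.184 to 0.986) and Lcn2 at 0.664 times (0.562 to 0.784). Hdc, which mast cells also express, was at 2.87 times sham (1.72 to 5.05), Clec4d at 1.995 times (1.15 to 3.64) and Msrb1 at 1.36 times (1.296 to 1.435). A spot is a small area that can hold several cells, and fewer neutrophils in it cannot be told apart from less RNA per neutrophil.

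The sum of the receptor genes and Retnlg gave the same order in the sections, as did Retnlg by itself, while Csf3r and Cxcr2 did not. Il1r2 was highest at TAC-4w, with 21 UMIs, but its 4 UMIs at both TAC-2w and TAC-6w were too few to order those sections. Csf3r, Cxcr2, Il1r2 and Retnlg together were at 4.73 CPM in sham and 1.07, 12.9 and 2.51 at 2, 4 and 6 weeks. Retnlg gave 75 of the sham UMIs and 327 of those at TAC-4w. Csf3r was at 1.27 CPM in sham and 1.28 at TAC-6w, a ratio of 1.01 (0.653 to 1.59), and Cxcr2 at 0.346 CPM in sham and 0.344 at TAC-4w, a ratio of 0.995 (0.375 to 2.72). Lcn2, which encodes the iron-scavenging protein lipocalin-2 and is also made by cells other than neutrophils, was at 10.1, 3.96, 55.9 and 6.69 CPM in that order, with a UMI in 728 of the 1228 spots of TAC-4w. Ltf, Camp and Ngp, granule genes of younger neutrophils, were each at 1.85 CPM or less in every section, with Ngp at 0.462, 0.123, 1.85 and 0.249 CPM. At TAC-4w Ngp was at 4.00 times sham (2.13 to 8.18) and Camp at 3.66 times (1.67 to 9.12). Ltf was at 1.75 times, with an interval that held 1 (0.879 to 3.69). Genes of B cells, platelets and red blood cells did not stand highest at TAC-4w. Cd79a of B cells was at 0.500, 0.246, 0.532 and 0.538 CPM, Ppbp at 1.5, 2.52, 1.10 and 2.01 CPM, and the haemoglobin genes together at 10464, 13699, 3928 and 7591 CPM. The section files held between 25996378 and 48754396 UMIs.

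The neutrophils were small cells by RNA content. The median neutrophil had 2513, 3045, 3256 and 1444 UMIs and 855.5, 972.5, 950 and 560 genes. Over all kept barcodes the medians were 9250, 10856, 4484 and 4828 UMIs. The median sum of S100a8 and S100a9 was 231.5 UMIs per cell in sham and 255.5, 379 and 120 at 2, 4 and 6 weeks, far above the limit of 20. The median sum of Csf3r, Cxcr2, Il1r2 and Retnlg was 33, 38.5, 40 and 23 UMIs, against a limit of 3. In the sum of S100a8 and S100a9, 1, 0, 5 and 2 members lay at 20 to 24 UMIs, and 1, 1, 13 and 9 barcodes that met the other conditions lay at 15 to 19. In the sum of Csf3r, Cxcr2, Il1r2 and Retnlg, no member had exactly 3 UMIs and 1 barcode, at TAC-4w, had 2. In the sum of Ltf, Camp and Ngp, 4, 1, 24 and 1 members had 5 to 9 UMIs, and 0, 0, 6 and 1 barcodes had 10 to 14. The limit on Cd79a and Cd3e alone kept out 0, 1, 112 and 5 barcodes. This limit at TAC-4w was the edge with the most barcodes, followed in proportion to the members by the S100 sum at TAC-6w, where the median depth was lowest.

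Neutrophil genes that the rule did not use were higher in these cells than in the other kept barcodes of the same library, at 30.0 to 226 times for Clec4d, 17.1 to 441 times for Hdc, which makes histamine, and 6.64 to 167 times for Mmp9. The margin was smallest at TAC-4w for Lcn2, at 1.96 times (2228 against 1139 CPM), and for Wfdc21, at 3.86 times. The genes that define eosinophils were absent or close to it. Epx and Ear6 were at 0 UMIs in the mature neutrophils of every library and Prg2 in all but TAC-4w, and Siglecf was at 2.08 CPM in sham and 3.56, 8.36 and 0 at 2, 4 and 6 weeks. No barcode sequence was a member in more than 1 library, although each pair of libraries shared 9 to 30 deposited barcodes. S100a8, counted after every cell was thinned to 1000 UMIs, was found in 98.6%, 98.5%, 99.9% and 98.6% of mature neutrophils in sham and at 2, 4 and 6 weeks. In fibroblast-marked barcodes, which should lack it, the share was 0.241%, 0.216%, 8.08% and 0.622%. Without thinning the shares in fibroblast-marked barcodes were 2.40%, 2.58%, 62.0% and 2.55%, at median depths of 10624, 12664, 13677 and 6263 UMIs. S100a8 in barcodes that should lack it was thus more frequent at TAC-4w, and the limit of 20 UMIs was set on raw counts. The source of these UMIs was not tested.

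Some members held far more UMIs than the rest. Those over 2 times the median of their library's members numbered 17 in sham and 9, 100 and 18 at 2, 4 and 6 weeks, or 11.8%, 13.6%, 9.85% and 11.1% of members. They held 34.6%, 39.2%, 25.0% and 37.8% of all neutrophil UMIs. Markers of macrophages, fibroblasts, endothelial cells, cardiomyocytes and dendritic cells together made up 1.89%, 2.43%, 0.505% and 2.22% of their UMIs, and 0.186%, 0.175%, 0.0542% and 0.106% of those of the remaining members. Of the high-UMI members, 8, 5, 14 and 14 had at least 1% such UMIs, against 1, 0, 1 and 1 of the others. The doublet caller Scrublet removed 8 of the 17, 3 of the 9, 19 of the 100 and 12 of the 18. Levels are therefore given below for the 127, 57, 915 and 144 members with at most 2 times the median UMIs, called lower-UMI neutrophils, a choice made after seeing the data, and for all members where the text says so.

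**Figure D2:**
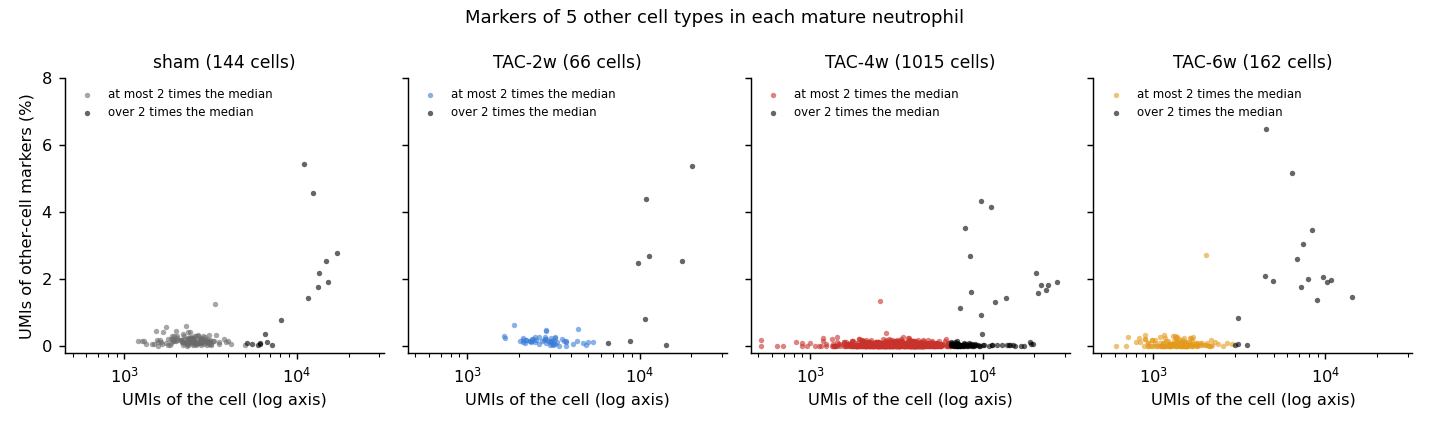
UMIs of each mature neutrophil (horizontal, log axis) against the percent of its UMIs from markers of the 5 other cell types (vertical), 1 panel per library. Black points are cells over 2 times the median UMIs of their library's members and coloured points the others. Most points over 1% are black, among which 8 of 17 sham, 5 of 9 TAC-2w, 14 of 100 TAC-4w and 14 of 18 TAC-6w cells reach that percent.

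Fibroblast and macrophage genes were lower in the lower-UMI neutrophils, but those of some other cell types were not. The fibroblast markers summed to 4912 CPM over all members in sham and 6049, 762 and 7985 at 2, 4 and 6 weeks, and to 936, 697, 281 and 570 CPM in the lower-UMI neutrophils. The macrophage markers were at 1247, 2638, 65.1 and 700 CPM over all members and at 194, 363, 22.6 and 82.8 CPM in the lower-UMI neutrophils. The cardiomyocyte markers went the other way in 3 libraries, at 391.5, 320, 53.2 and 200.1 CPM over all members and at 503, 480.5, 51.7 and 302 CPM in the lower-UMI neutrophils. The platelet markers at TAC-4w were at 406 and 489 CPM, the NK cell markers at TAC-6w at 106 and 170.5 CPM, and the smooth muscle and pericyte markers in sham at 125 and 153 CPM, each higher in the lower-UMI neutrophils. Ighm was the most abundant of the B cell markers, which summed to 76.4, 82.0, 117 and 58.5 CPM, and Cd79b and Ms4a1 were at 0 in sham, TAC-2w and TAC-6w. In the lower-UMI neutrophils haemoglobin RNA made up 0.690% of UMIs in sham against 0.0481%, 0.115% and 0.0375% in the TAC libraries. Over all members it made up 1.23%, 0.0335%, 0.620% and 0.02395%. Sham was the highest in both sets, though in the other kept barcodes the red blood cell markers were highest at TAC-4w, at 23336 CPM against 11557 in sham. The part of this RNA in the differences from sham was not tested.

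Over all members, 1221 genes outside the rule had a mean level of at least 100 CPM over the 4 libraries. At TAC-2w 17 of them were at least 2-fold above sham (1.39%) and 33 at least 2-fold below (2.7%). At TAC-4w the counts were 10 (0.819%) and 93 (7.62%), and at TAC-6w 80 (6.55%) and 95 (7.78%). In the lower-UMI neutrophils 1113 genes were compared, with 12 above (1.08%) and 29 below (2.61%) at TAC-2w, 2 (0.18%) and 23 (2.07%) at TAC-4w, and 55 (4.94%) and 95 (8.54%) at TAC-6w. The profile of the neutrophils at TAC-4w, where they were most numerous, was thus closer to sham by this count than that at TAC-6w. The lower-UMI neutrophils held 314096, 170664, 2961010 and 205240 UMIs, and with fewer UMIs more genes pass 2-fold by counting error. The TAC-6w counts include 12 ribosomal protein genes above and 11 mitochondrially encoded genes below. The part of either in the counts was not tested. The shares of all genes 2-fold apart are the background for the counts over gene groups below. The median ratio over all genes in the lower-UMI neutrophils was 1.05, 0.981 and 1.04 at 2, 4 and 6 weeks.

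Over all members, many of the most extreme ratios were those of genes of other cell types. Ccn2, Fibin, Sparc, Mfap5 and Bgn, genes of stromal cells and matrix, were among those that led the ratios at TAC-6w, while C1qc, C1qa, C1qb and Col15a1 had the lowest ratios at TAC-4w. Sparc was at 291.5 CPM over all members in sham and 1243 at TAC-6w, a ratio of 4.26 (3.51 to 5.20), but at 47.8 and 24.4 CPM in the lower-UMI neutrophils, where the direction turned (0.510, 0.145 to 1.48). Ccn2, encoding a matricellular growth factor, was at 66.6, 281, 160 and 446 CPM over all members in sham and at 2, 4 and 6 weeks and at 25.5, 11.7, 6.75 and 14.6 CPM in the lower-UMI neutrophils. Cd74, the invariant chain of MHC class II, was at 1172, 1748, 199 and 78.8 CPM over all members and at 134, 141, 101 and 68.2 CPM in the lower-UMI neutrophils.

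**Figure D3:**
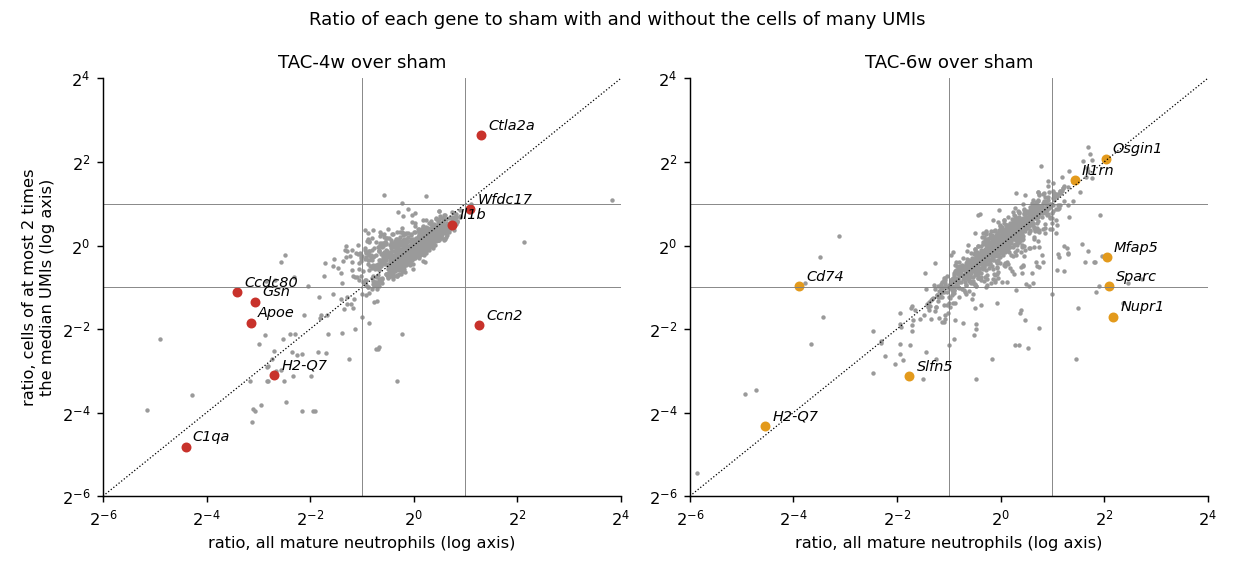
Ratio of each compared gene to sham over all mature neutrophils (horizontal) and in the lower-UMI neutrophils (vertical), both on log axes, for TAC-4w and TAC-6w. Genes off the diagonal, such as Sparc and Cd74 at TAC-6w, have different ratios without the high-UMI members, while Il1rn, Osgin1 and H2-Q7 lie near it. Genes with a ratio of 0 or outside the axes, 2 for TAC-4w and 9 for TAC-6w, are left out.

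Of the 12 neutrophil genes that the rule did not use, a mixed list with Il1b, Hdc and Trem1 beside granule genes, 12 stood above sham at TAC-4w, with a median ratio of 1.29, 10 at TAC-6w (1.26) and 9 at TAC-2w (1.08), and none was 2-fold apart. The medians over all genes compared were 0.981, 1.04 and 1.05 in the same order, so the TAC-2w median was near that of all genes. Over all members the count at TAC-2w was 5, with a median of 0.988 against 1.06 over all genes. Slpi, an inhibitor of neutrophil elastase, was at 2359 CPM in sham and 2455, 3070 and 3625 at 2, 4 and 6 weeks. Lcn2 was at 1503, 1834, 2296 and 2071 CPM in that order, with sham the lowest. Wfdc21, a small secreted protein gene of neutrophils, was at 990, 1318, 1602 and 1194 CPM, again with sham the lowest and 1.62 times as high at TAC-4w (1.44 to 1.82). In the other kept barcodes, which include the immature neutrophils, Wfdc21 was at 6.25 CPM in sham and 396 at TAC-4w and Lcn2 at 29.3 and 1139 CPM. These rises move with the neutrophil differences and are of similar size in CPM, and their part in them was not tested.

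Mmp9, which encodes the gelatinase of the tertiary granules, was at 586, 791, 749 and 1052 CPM in sham and at 2, 4 and 6 weeks. Mmp8, neutrophil collagenase, was at 634, 809, 626 and 380 CPM, so that at TAC-6w it was lowest where Mmp9 was highest. Clec4d, a C-type lectin receptor for fungal and mycobacterial glycans, was at 2015, 2086, 2351 and 3338 CPM, 1.66 times sham at TAC-6w (1.48 to 1.85). Trem1, an amplifier of inflammatory signalling, was at 2018, 2268, 2124 and 2129 CPM, and its ratios to sham had intervals that held 1 in each TAC library.

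Among the genes of the rule, given without a test, S100a8 was at 41115, 46729, 57392 and 42633 CPM and S100a9 at 64955, 68913, 74763 and 71565 CPM. Retnlg, a resistin-like secreted protein, was at 10506, 14619, 12304 and 11820 CPM. Csf3r, the G-CSF receptor, was at 1643, 1793, 1387 and 1725 CPM. Cxcr2, the receptor for CXCL1 and CXCL2, was lowest at TAC-6w, at 707, 551, 736 and 419 CPM. Il1r2, a decoy receptor that binds interleukin-1 without signalling, was highest there, at 3747, 3756, 3913 and 6709 CPM.

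Il1b, the gene of interleukin-1β, was at 11630 CPM in sham and 6809, 16401 and 7776 at 2, 4 and 6 weeks. TAC-4w was the highest, at 1.41 times sham (1.36 to 1.46), and TAC-2w and TAC-6w lay below sham, at 0.585 (0.548 to 0.626) and 0.669 (0.630 to 0.709). TAC-4w was also highest over the single cells of all members. After thinning to 1000 UMIs per cell (9 shallower cells of TAC-4w and 18 of TAC-6w were left out) the median was 8.5, 5.5, 14 and 5 UMIs of Il1b, and the 10th to 90th percentiles were 1 to 21.7, 1 to 15, 5 to 30 and 0 to 15. In all other kept barcodes together Il1b was at 127, 186, 400 and 114 CPM, also highest at TAC-4w. In the sections Il1b was at 0.308, 0.164, 0.564 and 0.228 CPM, from 8, 8, 18 and 11 UMIs. The TAC-4w ratio was 1.83 (0.758 to 4.87), and the interval held 1 in each TAC section.

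Il1rn, which encodes the receptor antagonist that blocks interleukin-1, followed another order. It was at 439 CPM in sham and 533, 467 and 1296 at 2, 4 and 6 weeks. TAC-6w was the library that stood apart, with a ratio of 2.95 (2.39 to 3.65) within batch 3. Over all members the ratio was 2.70 (2.22 to 3.31). A UMI of Il1rn at 1000 UMIs per cell was found in 25.7% of mature neutrophils in sham and 22.7%, 27.7% and 45.1% at 2, 4 and 6 weeks, against at most 0.104% in the fibroblast-marked barcodes of any library. In the other kept barcodes Il1rn was at 8.46, 12.2, 14.03 and 9.58 CPM, so the difference at TAC-6w was not seen there. Of the 4 compared genes of the interleukin-1 family, Il1rn alone was 2-fold above sham at TAC-6w, and none was 2-fold apart at TAC-2w or TAC-4w.

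**Figure D4:**
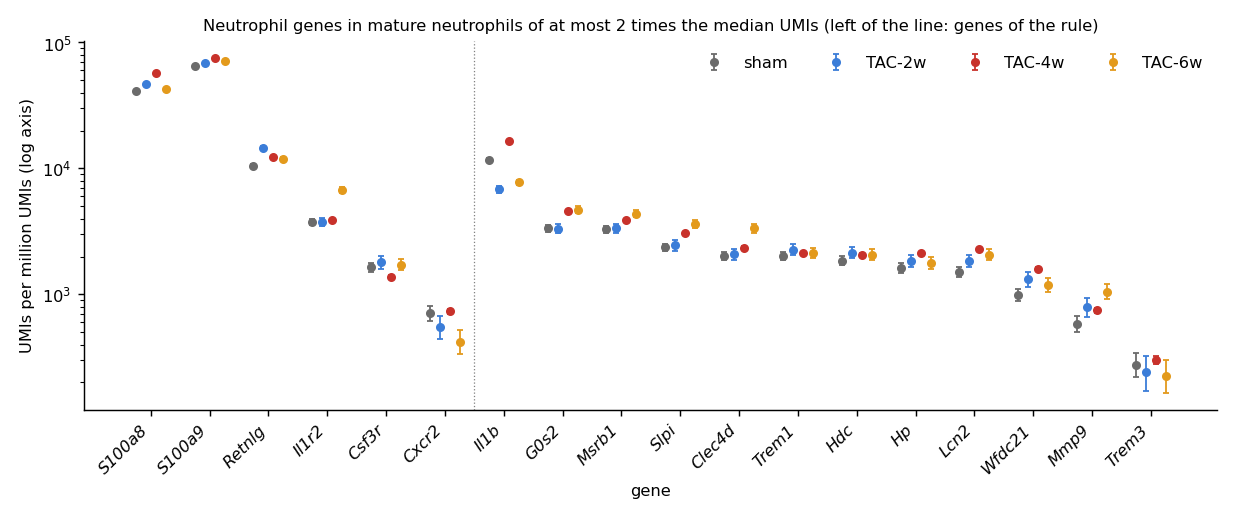
Levels of neutrophil genes (horizontal) in the lower-UMI neutrophils of each library in CPM (vertical, log axis), with 95% intervals for counting error and the genes of the rule left of the dotted line. Il1b is highest at TAC-4w, at 16401 CPM, and Il1r2 at TAC-6w, at 6709 CPM, while most other genes lie close together over the 4 libraries.

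Chemokine genes differed in their order over the libraries. Cxcl2, a neutrophil attractant, was at 23525 CPM in sham and 21205, 26126 and 26939 at 2, 4 and 6 weeks, within 1.15 times sham. Ccl3, a ligand for monocytes and T cells, was at 560, 867, 458 and 970 CPM and Ccl4 at 1359, 785, 1490 and 1296 CPM. The ratio to sham was 1.55 (1.24 to 1.94) at TAC-2w and 1.73 (1.41 to 2.13) at TAC-6w for Ccl3, and 0.578 (0.472 to 0.703) at TAC-2w for Ccl4. The median cell held 0 UMIs of Ccl3 in every library at 1000 UMIs per cell. Of the 8 cytokine and chemokine genes compared, Tnf was at least 2-fold below sham at TAC-2w (191 and 87.9 CPM) and Csf1, the macrophage growth factor, at TAC-6w (478 and 239 CPM), with none at TAC-4w. Osm, a cytokine of the interleukin-6 family, was at 688, 609, 843 and 351 CPM, and its TAC-6w ratio was 0.510 (0.385 to 0.669).

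Of the 6 compared chemotactic and growth factor receptor genes outside the rule, 0 were 2-fold apart from sham at TAC-6w, and of the 8 compared pattern and Fc receptor genes 1 was, Cd14, against 4.94% of all genes above sham. Ptafr, the receptor for platelet-activating factor, was at 407.5, 340, 431 and 809 CPM, or 1.99 times sham (1.57 to 2.52) at TAC-6w. Cxcr4, which retains neutrophils in the marrow and marks ageing ones, was at 1086, 844, 1010 and 1603 CPM. Cd14, a co-receptor for lipopolysaccharide, was above sham in each TAC library, at 1159, 2156, 1711 and 2339 CPM, with ratios of 1.86 (1.61 to 2.16), 1.48 (1.33 to 1.65) and 2.02 (1.76 to 2.32). In the other kept barcodes Cd14 was at 205, 257, 171 and 252 CPM. Itgam, the αM integrin chain of Mac-1, was at 315, 269.5, 260 and 127 CPM, 1 of 5 compared adhesion genes and the one that was 2-fold below sham, at TAC-6w (0.402, 0.250 to 0.624).

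Wfdc17, a secreted whey acidic protein family gene, was at 1363 CPM in sham and 2971, 2482 and 1613 at 2, 4 and 6 weeks. It was the one gene of 7 alarmin and cystatin genes that was 2-fold above sham at TAC-2w, with a ratio of 2.18 (1.91 to 2.49), and stood at 1.82 (1.65 to 2.01) at TAC-4w. The other kept barcodes had 208, 338.5, 129 and 152 CPM, also highest at TAC-2w but not above sham at TAC-4w. Hcar2, a receptor for niacin and ketone bodies, was at 821, 750, 1526 and 1306 CPM, 1.86 times sham (1.64 to 2.12) at TAC-4w, then 1.59 times (1.33 to 1.89). The 2 genes 2-fold above sham at TAC-4w in the lower-UMI neutrophils were Ctla2a and Rpl35, named after their values were seen. In these cells Ctla2a reached the mean level required for comparison at TAC-4w alone. Ctla2a was thus admitted by the same value that is counted as higher. Ctla2a was at 79.6, 17.6, 497 and 0 CPM and in the other kept barcodes at 183, 133, 1452 and 79.8 CPM, so it was highest at TAC-4w in both. The platelet markers, with Pf4 the most abundant, moved with it in the lower-UMI neutrophils, at 111, 41.0, 489 and 24.4 CPM, and their part in it was not tested. A few cells carried much of it, since at 1000 UMIs per cell the TAC-4w median was 0 UMIs of Ctla2a and the 90th percentile 1, while 7 of 1006 cells held at least 10 and the highest 48.

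Some genes stood apart at TAC-6w alone. Osgin1, a target of the oxidative stress factor NRF2, was at 159 CPM in sham and 170, 193 and 672 at 2, 4 and 6 weeks, 4.22 times sham (3.04 to 5.96). In the other kept barcodes it was at 5.80, 5.12, 9.48 and 11.4 CPM, 1.96 times sham at TAC-6w. Sqstm1, the autophagy receptor p62 and another NRF2 target, was at 213, 158, 169 and 487 CPM. Lgals3, galectin-3, was at 309, 416, 366 and 711 CPM, and Tgm2, a transglutaminase, at 407.5, 363, 421 and 857.5 CPM. These genes were named after their values were seen, Osgin1 by the size of its ratio, and no list of NRF2 targets was compared.

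Several signalling genes were among those lower at TAC-6w. Ptgs2, the inducible cyclooxygenase, was at 831, 709, 764 and 244 CPM (0.293, 0.212 to 0.398). Btg2, an antiproliferative early-response gene, was at 2735, 1717, 2833 and 1091 CPM, and the zinc-finger factor Egr1 at 1748, 1014, 1224 and 672 CPM. Egr1 was the 1 of 13 compared immediate early and heat shock genes below sham by 2-fold at TAC-6w, a share under that of all genes, and over all members 0 of 15 compared were. Btg2 was 1 of 7 compared survival genes. Rel, an NF-κB subunit, was at 220, 187.5, 120 and 107 CPM, and with Ptgs2 it made 2 of 8 compared NF-κB response genes below sham by 2-fold at TAC-6w, with 0 of 8 at TAC-2w and TAC-4w. Cstdc4, a cystatin gene of a cluster of close copies among which reads may be shared, was at 1028, 551, 1179 and 248.5 CPM.

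Interferon-stimulated genes are switched on by type I interferon through the factor ISGF3, which binds the interferon-stimulated response element in their promoters. Ifit1, which binds viral RNA, Rsad2, the antiviral enzyme viperin, Slfn5, a member of the Schlafen family, and Irf7, the factor that sustains interferon production, are shown here because they were the 4 list genes at least 2-fold below sham at TAC-4w. The sequences are from RefSeq (GRCm38.p6), 250 bases before to 50 after the start of the gene, on the gene's strand, and capitals mark that element, searched as GAAA, any 2 bases and GAAA, or on the other strand TTTC, any 2 bases and TTTC.
Ifit1, chr19:34640639-34640938, plus strand: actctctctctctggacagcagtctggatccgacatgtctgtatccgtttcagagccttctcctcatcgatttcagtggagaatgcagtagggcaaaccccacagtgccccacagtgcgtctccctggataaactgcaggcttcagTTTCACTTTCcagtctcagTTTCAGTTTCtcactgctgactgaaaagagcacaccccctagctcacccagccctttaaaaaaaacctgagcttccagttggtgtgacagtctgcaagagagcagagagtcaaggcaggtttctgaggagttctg
Rsad2, chr12:26456403-26456702, minus strand: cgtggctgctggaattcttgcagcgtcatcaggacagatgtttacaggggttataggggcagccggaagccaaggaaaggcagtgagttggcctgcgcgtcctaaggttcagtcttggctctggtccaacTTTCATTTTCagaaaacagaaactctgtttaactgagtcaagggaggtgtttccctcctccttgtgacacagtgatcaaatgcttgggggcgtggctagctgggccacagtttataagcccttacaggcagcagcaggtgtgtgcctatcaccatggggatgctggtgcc
Slfn5, chr11:82951852-82952151, plus strand: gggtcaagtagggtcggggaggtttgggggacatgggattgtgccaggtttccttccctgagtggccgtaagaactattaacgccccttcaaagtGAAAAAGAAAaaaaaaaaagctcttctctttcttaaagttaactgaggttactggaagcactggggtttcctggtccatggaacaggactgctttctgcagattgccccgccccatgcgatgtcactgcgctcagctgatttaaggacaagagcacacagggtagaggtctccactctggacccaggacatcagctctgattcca
Irf7, chr7:141266375-141266674, minus strand: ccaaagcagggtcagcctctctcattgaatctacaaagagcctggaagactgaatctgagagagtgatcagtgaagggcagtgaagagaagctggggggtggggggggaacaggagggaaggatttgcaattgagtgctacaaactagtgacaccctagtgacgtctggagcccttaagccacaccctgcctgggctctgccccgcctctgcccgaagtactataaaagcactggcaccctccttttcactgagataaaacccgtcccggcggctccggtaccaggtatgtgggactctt
Ifit1 held 2 matches, Rsad2 and Slfn5 1 each and Irf7 none. Of the 17 interferon-stimulated genes with a promoter in the reference, 10 held a match, against 1079 of 27025 genes overall (3.99%), and a match describes letters only.

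In the lower-UMI neutrophils Ifit1 was at 156 CPM in sham and 170, 59.4 and 29.2 at 2, 4 and 6 weeks. Slfn5 was at 341, 240, 105 and 38.98 CPM and Irf7 at 226, 117, 85.1 and 58.5 CPM in that order. All 3 were highest in sham or TAC-2w and lowest at TAC-6w. Rsad2 was at 503, 305, 221 and 263 CPM, with sham the highest. The ratios at TAC-4w were 0.381 (0.276 to 0.534) for Ifit1, 0.307 (0.246 to 0.387) for Slfn5, 0.377 (0.288 to 0.497) for Irf7 and 0.440 (0.369 to 0.527) for Rsad2.

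Of the 10 compared interferon-stimulated genes, 4 were at least 2-fold below sham at TAC-4w and 0 at TAC-2w. At TAC-6w 4 were (Ifit1, Irf7, Slfn5 and Slfn4). The median ratios at TAC-4w, TAC-6w and TAC-2w were 0.628, 0.552 and 1.06, and none of the genes was 2-fold above sham. Ifit1 and Irf7 reached the mean level required for comparison in sham and TAC-2w but not at TAC-4w or TAC-6w. Their count as below sham is therefore partly set by that requirement. Over all members 9 genes of the list were compared, with 1 below at TAC-4w (Irf7), 5 at TAC-6w and 0 at TAC-2w. Slfn4, a myeloid Schlafen gene, was at 981, 609, 572 and 200 CPM. Isg15, a ubiquitin-like protein, went another way, at 659, 1143, 613 and 697 CPM, with a ratio of 1.73 (1.42 to 2.12) at TAC-2w. Summed over the 19 genes of the list, the median mature neutrophil had 7.5, 9, 8 and 6 of 1000 UMIs, with overlapping ranges between the libraries (10th to 90th percentile 3 to 18.7, 3 to 16.5, 3 to 16 and 1 to 15).

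**Figure D5:**
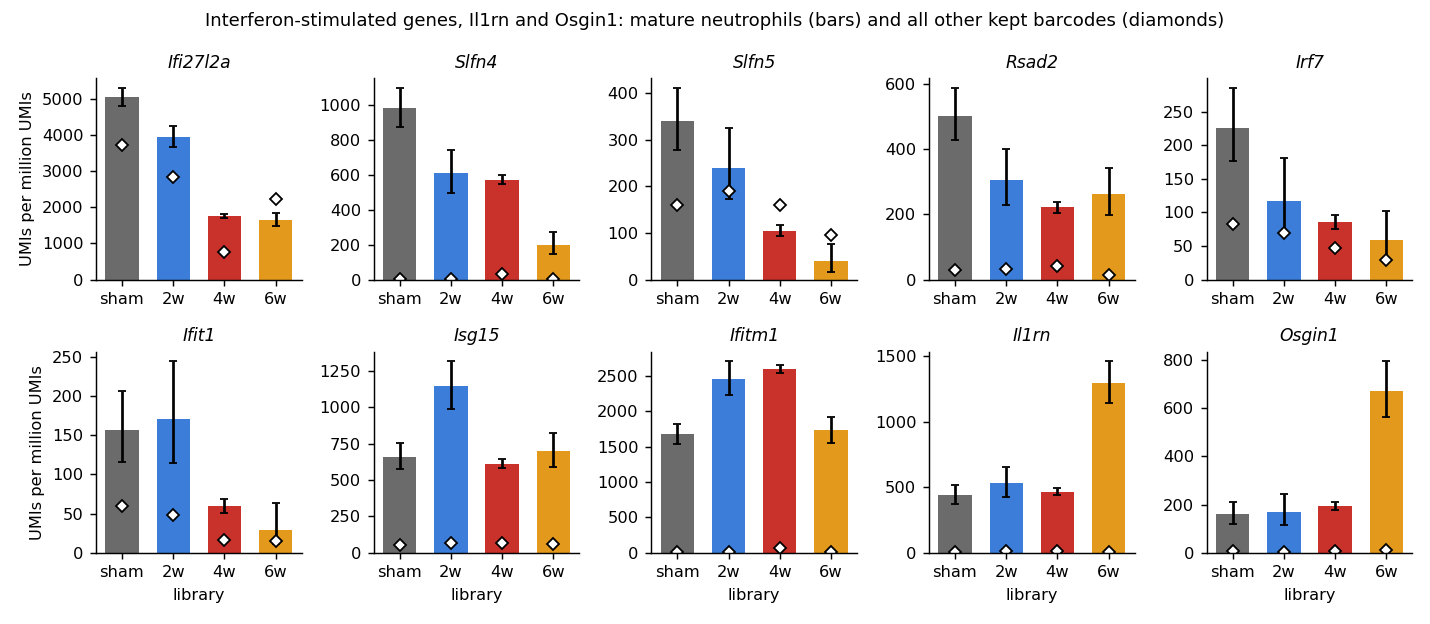
Levels of 8 interferon-stimulated genes, Il1rn and Osgin1 in the lower-UMI neutrophils of each library in CPM (bars, with 95% intervals for counting error) and in all other kept barcodes of the library (diamonds), each gene on its own axis. Ifit1, Irf7 and Slfn5 lie lower at TAC-4w and TAC-6w than in sham, at 59.4 and 29.2 CPM for Ifit1 against 156 CPM. Ifitm1 lies higher at TAC-4w than in sham, at 2595 against 1675 CPM, and Il1rn and Osgin1 are highest at TAC-6w.

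The other kept barcodes shared part of this pattern. In them the ratio to sham at TAC-4w was 0.278 for Ifit1, 0.567 for Irf7, 1.45 for Rsad2 and 1.00 for Slfn5, and at TAC-6w, within batch 3, it was 0.246, 0.359, 0.476 and 0.594. Ifi27l2a, an interferon-induced gene that was not on the list, was at 5043, 3949, 1758 and 1657 CPM in the neutrophils and at 3726, 2847, 771 and 2215 CPM in the other barcodes. The antigen-presenting genes of MHC class I, named after their values were seen, were at 1315, 1348, 538 and 653 CPM for H2-K1 and at 2576, 1881, 1400 and 1569 CPM for B2m. H2-Q7, a non-classical class I gene with near-identical copies, which makes its counts uncertain, was at 388, 357, 45.6 and 19.5 CPM in the neutrophils. In the other barcodes H2-Q7 was at 139, 122, 263 and 65.7 CPM, highest at TAC-4w, where the neutrophils had little of it.

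The TAC-6w neutrophils also differed in genes that every cell uses. The mitochondrially encoded genes made up 2.95%, 2.27%, 2.35% and 0.574% of UMIs in sham and at 2, 4 and 6 weeks, and 11 of 11 compared were at least 2-fold below sham at TAC-6w. The genes of cytosolic ribosomal proteins made up 4.41%, 4.36%, 4.55% and 7.03%, with 12 of 74 compared at least 2-fold above sham at TAC-6w and none below. Rps29 was at 860, 691, 970 and 2417 CPM in the neutrophils and at 3483, 3666, 4753 and 8418 CPM in the other kept barcodes, and mt-Nd2 was at 3614, 3665, 3293 and 1338 CPM in those barcodes. The direction at TAC-6w was therefore shared by the rest of that library. Gm42418, a feature that collects ribosomal RNA, was at 46963, 35309, 42176 and 18525 CPM in the neutrophils. These values move with the TAC-6w differences given above, and their part in them was not tested.

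Immature neutrophils, taken as barcodes with at least 20 UMIs of S100a8 and S100a9 but at least 10 of Ltf, Camp and Ngp, numbered 10 in sham and 9, 186 and 28 at 2, 4 and 6 weeks. They were 6.49% of both kinds of neutrophil in sham (3.16% to 11.6%). At 2 weeks this share was 12.0% (5.64% to 21.6%), at 4 weeks 15.5% (13.5% to 17.7%) and at 6 weeks 14.7% (10.0% to 20.6%). Sham had the lowest value, and only the intervals of sham and TAC-4w did not overlap. The sets are split by granule genes, so their contrast is a description. Over all members Chil3, the chitinase-like protein of marrow neutrophils, was at 35.4, 78.3, 108 and 18.2 CPM in the mature cells and at 7279, 7235, 4638 and 3715 CPM in the immature ones. The ficolin gene Fcnb was at 0 to 0.507 CPM and at 124 to 509 CPM. Wfdc17 was at 1029, 2207, 2202 and 1228 CPM over all mature neutrophils and at 34.5, 19.1, 189 and 5.85 CPM in the immature ones, and Sirpb1c, a signal-regulatory receptor gene, was at 109 to 158 CPM and at 0 to 12.99 CPM. The genes of azurophil granules, made earliest in development, were too low to compare, with Elane at 0, 0, 0.507 and 0 CPM in the mature cells.

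Against all other kept barcodes, the genes outside the rule with the largest lowest-library ratio in mature neutrophils were led by Lsmem1, a membrane protein gene, whose level was 50.6 to 137 times that of the other barcodes over the 4 libraries. Acod1, which makes the metabolite itaconate, followed at 38.6 to 1538 times, with 2749, 2361, 3045 and 2701 CPM over all members in sham and at 2, 4 and 6 weeks. Next came the stefin genes Cstdc4 and Stfa2l1, Asprv1, Hcar2, the inflammasome sensor gene Nlrp3, Rhov, Ifitm1 and Il1b. For Acod1 the lowest ratio was that at TAC-4w, where the other barcodes held 79.0 CPM against 2.43 in sham. In the lower-UMI neutrophils Acod1 was at 3750, 3240, 3360 and 3835 CPM, with ratios to sham of 0.864, 0.896 and 1.02.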

How the data were processed

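The authors counted UMIs per gene and barcode or spot with Cell Ranger and Space Ranger on mm10 and deposited these counts without normalization. The file headers give Cell Ranger 6.0.0 and Space Ranger 1.2.0, and the submitters' processing notes 7.0.0 and 1.3.1. Values were computed from the deposited counts in Python 3.11.15, with scanpy 1.11.5, scipy 1.17.1 and numpy 2.4.6. Levels are summed UMIs of the members per 1000000 UMIs (CPM). Sums have exact Poisson intervals, shares Clopper-Pearson intervals and ratios conditional binomial intervals, at 95%. Genes with a mean level of at least 100 CPM were compared, and a 2-fold ratio was used as a description. The genes named are those of the lists, those with the most extreme ratios by the interval bound nearer to 1, and those with the largest lowest-library ratio to other barcodes. Doublets were called with Scrublet at an expected rate of 7%, removing the 3.2% with the highest scores, as an alternative. Interval coverage was tested on simulated data. Members and gene lists were chosen with earlier results of these data known.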

Additional observations from a re-analysis of the deposited data

Results flagged for a closer look

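At TAC-4w 112 barcodes met the other neutrophil conditions but held a UMI of Cd79a or Cd3e, against 0 in sham, 1 at TAC-2w and 5 at TAC-6w, and so were outside the comparisons. Of these, 101 held Cd79a and 13 held Cd3e. Their median was 6356 UMIs, against 3256 for the TAC-4w members, and their median sum of Cd79a, Cd79b and Ms4a1 was 5.5 UMIs. Their source was not tested.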

How the results depend on the processing

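No paired analysis was possible because each condition had 1 library and 1 section. The share of mature neutrophils kept its direction against sham under every alternative run. The TAC-4w ratio was 10.97 with a mitochondrial share under 5% and 10.53 with all barcodes thinned to 1000 UMIs. It was 13.11 without B cell, platelet and red cell barcodes, members among them. This set was wider than the marked barcodes above and left totals of 6381, 4789, 3404 and 4224. With only Ptprc barcodes among members and total, the TAC-4w ratio was 3.853 and the TAC-6w ratio 1.314. The members were then 127, 63, 918 and 83, and the share intervals of sham and TAC-6w overlapped (4.14% to 5.86% and 5.21% to 7.99%). Counts of genes 2-fold apart depended on the level required. With at least 50 CPM they were 62 above and 83 below sham at TAC-2w, 27 and 221 at TAC-4w, and 172 and 198 at TAC-6w. With at least 200 CPM they were 8 and 12, 4 and 45, and 32 and 52. Thinning gave 55 above and 51 below at TAC-2w and 44 below at TAC-4w. Removal of called doublets gave 33 above at TAC-2w and 31 below at TAC-4w, a mitochondrial share under 5% gave 31 above at TAC-2w, and the mean CPM of single cells gave 1 above and 33 below at TAC-4w. Without the high-UMI members, a choice made after seeing the data, TAC-4w had 2 above and 23 below. The share of genes above among those apart at TAC-2w was 34%, 55.9% without called doublets and 51.9% after thinning, at TAC-4w 9.71%, 24.4% and 25.4%, and at TAC-6w 45.7% and 34.8% with mitochondrial, ribosomal-RNA-like, S100a8 and S100a9 UMIs left out of the total.

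Without the high-UMI members the ratio turned to the other side of 1 for Ccn2 at TAC-2w (0.4601), TAC-4w (0.2652) and TAC-6w (0.5739), for Comp and Prelp at TAC-2w (0 UMIs there), and at TAC-6w for Sparc and Ltbp4 (0.5101 each), Mfap5 (0.8241), Inhba (0.5401), Serpinh1 and Nupr1 (0.3061 each) and H2-Eb1 (1.166). Of these turned ratios only that of Ccn2 at TAC-4w had an interval that did not hold 1 (0.112 to 0.696), so the other turns lay within counting error. Without called doublets Ccdc80 turned at TAC-4w (1.09). In the sections, totals that leave out mitochondrial and ribosomal-RNA-like UMIs gave S100a8 and S100a9 ratios of 0.172, 2.508 and 0.4606. At TAC-6w the mean over spots gave 0.4749, and without the top spot, chosen after seeing the data, 0.3636. The cause of these differences was not tested. Precision is set by UMIs, of which the members held 480259 in sham and 280867, 3948179 and 329870 at 2, 4 and 6 weeks.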

Other observations

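The heat shock genes Hspa1a and Hspa1b, which cells switch on under stress that includes tissue dissociation, were at 108, 158, 12.2 and 29.2 CPM and at 89.1, 106, 11.8 and 9.75 CPM in the lower-UMI neutrophils of sham and of 2, 4 and 6 weeks of TAC. In the other kept barcodes Hspa1a was at 749, 880, 135.5 and 564 CPM, also lowest at TAC-4w. Hilpda, a hypoxia-inducible lipid droplet gene, was at 401, 410, 151 and 302 CPM in the neutrophils, the 1 of 10 compared hypoxia and glycolysis genes that was 2-fold below sham at TAC-4w. Of the survival genes, Mcl1, which neutrophils need to stay alive, was at 3203, 3164, 3968 and 2690 CPM.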
